A study of Mus musculus with 12 samples.

Results

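The genes described here are *Spp1*, which encodes osteopontin, its receptor gene *Cd44*, the matrix metalloproteinase (MMP) genes *Mmp12*, *Mmp14* and *Mmp2*, the MMP inhibitor gene *Timp2* and the protease genes *Adam8*, *Adam10*, *Adam15* and *Adam17*. They are 10 of the 55487 genes in the counts table, and all 10 were among the 16908 genes that passed the filter on low counts. The set was chosen from measured values of these libraries, so the difference of each gene between the populations is given as a description, without a test. Transcripts were counted by RNA-seq in microglia sorted at postnatal day 13 from the basal forebrain and striatum (BF/striatum) of YARG mice, which carry a YFP reporter at the endogenous *Arg1* locus. The 12 libraries comprised 3 from females and 3 from males of ARG1+ microglia, which had the YFP signal, and 3 from females and 3 from males of ARG1- microglia, which lacked it. Both populations came from the same strain and age and were sorted as CX3CR1+ cells without surface CD206. Each library was made from the pooled tissue of several brains of 1 sex, and the cells were defined by YFP in place of ARG1 protein itself.

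Osteopontin is a secreted phosphoprotein that binds integrins through an RGD motif and binds CD44, the cell surface receptor for hyaluronan, and it is known in the developing brain as a product of a restricted group of microglia in early white matter. MMPs cut components of the extracellular matrix and osteopontin itself, and TIMPs occupy their active site. ADAM proteases sit in the membrane and release the outer part of other membrane proteins, a process called shedding.

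Total counts lay between 28356659 and 60625170 per library. Levels are given as CPM, the count of a gene scaled to the normalized total of its library, with the SD over 6 libraries of a population. The reads carry no molecular identifiers, so limits set from counts cover counting error only. *Arg1* itself was counted 52 times in ARG1+ female replicate 15, 2 times in replicate 8 of the same group and nowhere else, so the transcript does not check the sort. *Csf1r*, a defining receptor of microglia, was at 16697 ± 2973 and 16185 ± 4024 CPM in ARG1+ and ARG1- libraries. The sum of 9 microglia markers was 37935 to 48857 CPM in ARG1+ and 48031 to 63992 CPM in ARG1- libraries, and edgeR called 6 of the 9 lower and 1, *Sall1*, higher in ARG1+ microglia. The log2 fold changes of the 6 ranged from -0.92 (*Gpr34*) to -0.41 (*Fcrls*). The sum of 8 border macrophage markers was 397 to 837 CPM in ARG1+ and 293 to 512 CPM in ARG1- libraries. Most of it was *Stab1*, which was higher in ARG1+ microglia (431 ± 138 against 239 ± 75.3 CPM, log2 fold change 0.82, adjusted p = 0.0277 by edgeR's quasi-likelihood test). *Lyve1* and *Cd163* were at 0 in all ARG1- libraries and at a mean of 0.0662 and 0.119 CPM in ARG1+ libraries. The means of *Ms4a7* (2.73 against 0.353 CPM, adjusted p = 0.176 by edgeR) and *Pf4* (1.03 against 0.564 CPM, adjusted p = 0.687) were also higher in ARG1+ microglia. Those of *F13a1* (adjusted p = 0.976 by edgeR) and *Cbr2* (adjusted p = 0.281) were lower. EdgeR called none of *Ms4a7*, *Pf4*, *F13a1* and *Cbr2*. *Mrc1*, which encodes the CD206 used for gating, had 147 ± 46.4 and 121 ± 16.1 CPM (adjusted p = 0.371 by edgeR). The 9 neutrophil markers summed to at most 0.0593 CPM in ARG1+ and 5.15 CPM in ARG1- libraries, and 3 of them (*Ly6g*, *Retnlg* and *Mpo*) had no count in any library. The 8 monocyte markers summed to 4.96 to 14.4 and 5.12 to 14.1 CPM, although *Plac8* fell from 6.75 to 1.32 CPM (adjusted p = 0.00466 by edgeR). Oligodendrocyte markers summed to 171 to 265 CPM in ARG1+ and 264 to 385 CPM in ARG1- libraries, with *Cnp* lower in ARG1+ microglia (adjusted p = 0.00467 by edgeR), and astrocyte markers to 130 to 151 and 177 to 224 CPM, with *Slc1a3* lower (adjusted p = 0.00817). Dendritic cell markers summed to 27.5 to 46.0 and 20.9 to 41.3 CPM, endothelial markers to 44.9 to 83.6 and 29.8 to 58.1 CPM, and neuron markers to 2.16 to 7.52 and 4.38 to 16.8 CPM. The 8 T cell markers summed to at most 0.613 and 0.661 CPM, and the 8 mural and fibroblast markers to at most 0.477 and 3.37 CPM, with *Dcn*, *Lum*, *Col1a1* and *Col3a1* at 0 throughout. The part of these marker levels in the results was not tested. In bulk samples, fewer cells that express a gene and less RNA per cell cannot be told apart.

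The windows of 250 bases before the RefSeq start sites (GRCm38.p6) differed widely in base composition among the genes. RefSeq windows were matched for 9 of the 10 genes, all but *Mmp2*. Below are those of *Spp1*, of *Mmp12* and *Adam8*, the genes with counts in ARG1+ libraries only, and of *Adam10*, which was abundant in both populations. Each runs 5′ to 3′ on the strand of its gene, and capitals mark CpG dinucleotides.
*Spp1* (chr5:104434861-104435110, plus strand): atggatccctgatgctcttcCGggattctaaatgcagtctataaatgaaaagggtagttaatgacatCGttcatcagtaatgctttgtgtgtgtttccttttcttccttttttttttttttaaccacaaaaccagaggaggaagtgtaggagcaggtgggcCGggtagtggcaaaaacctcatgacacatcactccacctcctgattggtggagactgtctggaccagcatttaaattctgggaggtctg
*Mmp12* (chr9:7344147-7344396, plus strand): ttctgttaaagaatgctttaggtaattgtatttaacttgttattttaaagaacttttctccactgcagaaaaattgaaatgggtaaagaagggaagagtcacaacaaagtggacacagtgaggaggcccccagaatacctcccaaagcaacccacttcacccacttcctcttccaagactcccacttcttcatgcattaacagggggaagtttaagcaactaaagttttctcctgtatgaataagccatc
*Adam8* (chr7:139992563-139992812, minus strand): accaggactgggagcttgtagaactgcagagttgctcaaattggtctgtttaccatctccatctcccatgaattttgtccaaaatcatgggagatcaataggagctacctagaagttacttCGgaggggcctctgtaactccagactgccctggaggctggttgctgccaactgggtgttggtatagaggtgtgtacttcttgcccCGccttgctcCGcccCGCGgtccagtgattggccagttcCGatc
*Adam10* (chr9:70678732-70678981, plus strand): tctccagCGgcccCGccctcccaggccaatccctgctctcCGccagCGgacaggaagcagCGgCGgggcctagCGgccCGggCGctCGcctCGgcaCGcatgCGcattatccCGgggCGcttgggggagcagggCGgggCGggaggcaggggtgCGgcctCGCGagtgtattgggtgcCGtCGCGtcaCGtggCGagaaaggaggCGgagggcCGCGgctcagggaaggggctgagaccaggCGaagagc

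The *Spp1* window held 3 CpG and 43.6% G and C, and the *Mmp12* window held no CpG and 40.0% G and C. The *Adam8* window held 6 CpG and 52.8% G and C, equal in CpG to the median of 6 over all 32851 promoter windows of 27025 genes, which had a median G and C content of 52.4%. The *Adam10* window held 29 CpG and 74.0% G and C, and 93.2% of all windows had fewer CpG. *Adam17* (23 CpG), *Timp2* (21) and *Adam15* (18) had CpG-rich windows like that of *Adam10*, while *Mmp14* had 10 and *Cd44* 5. A set of 3 motifs was then searched on both strands. The AP-1 letters TGANTCA were in 0 of the 9 windows and in 6.75% of all windows. The letters GAGGAA, an ETS core with its flank, were in the 3 windows of *Spp1*, *Cd44* and *Mmp12* and in 23.3% of all windows. The GC box GGGCGG was in the other 6 windows and in 32.7% of all windows, and no window held more than 1 kind of motif. Of the 3 GC boxes in the *Adam10* window, 2 overlap by 1 base. These matches describe the letters of the windows, and binding was not measured.

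*Spp1* (ENSMUSG00000029304), the ligand, lies on chromosome 5 of GRCm38 from 104435118 to 104441050 on the plus strand. It was the member with the widest separation among the genes with counts in both populations. Its lowest, median and highest levels were 111, 198 and 322 CPM in ARG1+ libraries and 18.8, 37.2 and 54.5 CPM in ARG1- libraries. Every ARG1+ library lay above every ARG1- library. The means were 214 ± 73.8 and 36.2 ± 14.4 CPM (SD, n = 6 each), a ratio of 5.89 and a fitted log2 fold change of 2.52 (SE 0.31). ARG1+ females had 263 ± 63.9 CPM and ARG1+ males 164 ± 46.7 CPM (SD, n = 3 each), whereas ARG1- females and males had 35.2 ± 18.0 and 37.3 ± 13.9 CPM. The difference between females and males in ARG1+ microglia was 0.68 on the log2 scale (SE 0.40) and did not pass the test (adjusted p = 1 by edgeR's quasi-likelihood test, unadjusted p = 0.112). Of the 1648 exon bases of *Spp1*, 309 are shared with *Gm42793* on the same strand. That locus had 9.88 ± 3.18 CPM in ARG1+ and 1.75 ± 0.741 CPM in ARG1- microglia. The source of reads in the shared bases cannot be told, and how the counting treated such reads is not given. Their effect on the level of *Spp1* was not tested.

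*Cd44* (ENSMUSG00000005087), the receptor, lies on chromosome 2 from 102811141 to 102901665 on the minus strand. It was sparse, with 3.07, 5.66 and 12.8 CPM as the lowest, median and highest levels in ARG1+ libraries and 0.903, 2.21 and 6.80 CPM in ARG1- libraries. The populations overlapped. The means were 6.29 ± 3.54 and 3.27 ± 2.48 CPM and gave a fitted log2 fold change of 0.84 (SE 0.55). In females the log2 fold change was 1.65 (SE 0.72), and in males it was 0.03 (SE 0.71). The difference between these values was 1.62 (SE 1.004) and did not pass the test (interaction, adjusted p = 0.6657 by edgeR, unadjusted p = 0.134). Among the libraries numbered 13 to 16 in the labels, 1 of each sex and population, the mean difference in log2 CPM was 2.01 for *Cd44*, and among the other libraries it was 0.68. For *Spp1* these differences were 2.19 and 2.79. What the numbers stand for is not given, and their part in the result was not tested beyond the fit with an added term.

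**Figure D1:**
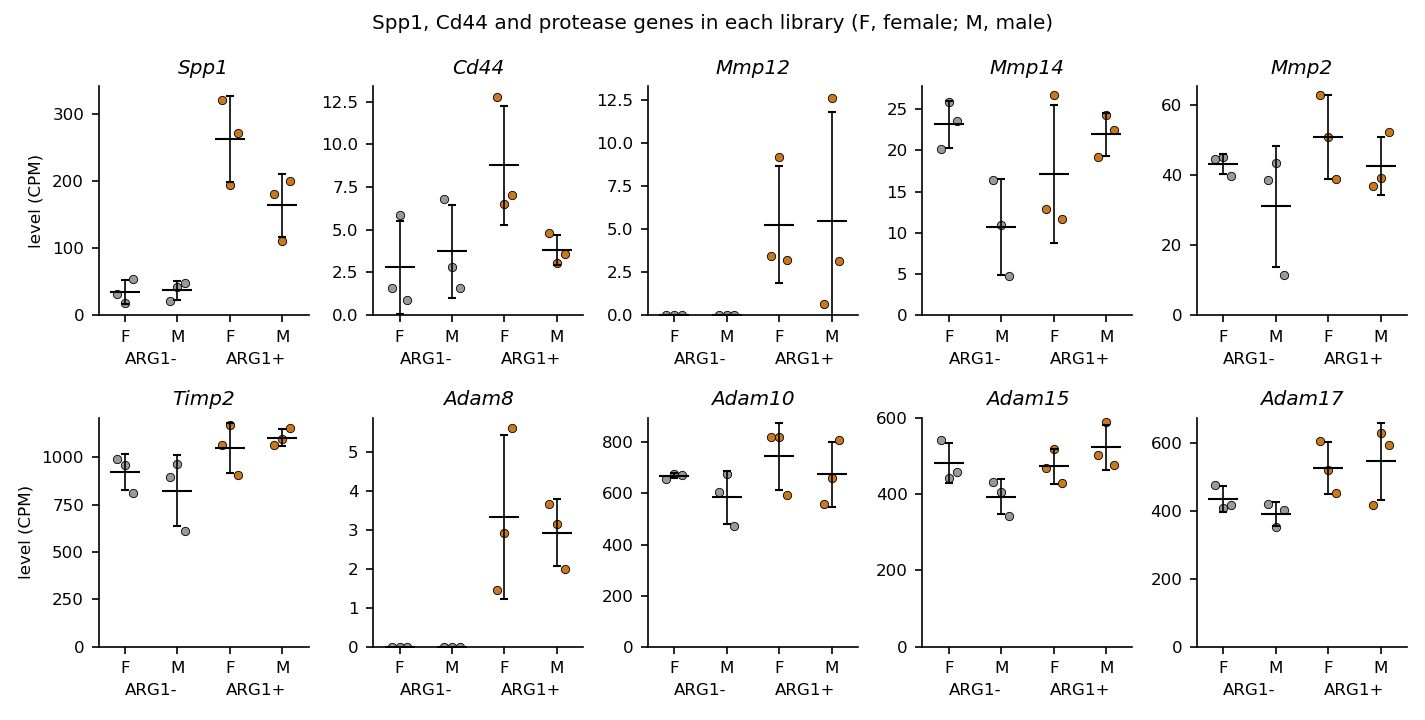
Level (CPM, linear axes from 0) of each of the 10 genes in each library, by population and sex, with the mean and SD of each group of 3 as bars. The ARG1+ points of *Spp1*, *Mmp12* and *Adam8* lie above all ARG1- points, and ARG1- male replicate 14 is the lowest point for *Mmp14*, *Mmp2*, *Timp2*, *Adam10* and *Adam15*.

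*Mmp12* (ENSMUSG00000049723), on chromosome 9 from 7344381 to 7369499, encodes macrophage elastase. It had 0 counts in all 6 ARG1- libraries and was detected in all 6 ARG1+ libraries, where the counts were 108, 270 and 112 in female replicates 7, 8 and 15 and 28, 602 and 107 in male replicates 11, 12 and 16. These counts correspond to 0.636, 3.31 and 12.7 CPM as the lowest, median and highest levels. The spread within ARG1+ microglia was wide, and ARG1+ male replicate 12 had the highest *Mmp12* (12.7 CPM) and the lowest *Spp1* (111 CPM). The 2 genes did not vary together detectably across ARG1+ libraries (Pearson's r = -0.34, exact permutation p = 0.506, and Spearman's rho = -0.20, p = 0.714, n = 6). Without the 2 libraries farthest from the median of *Spp1*, r was 0.27. Against a limit of 3 counts in each ARG1- library, the mean *Mmp12* level of 5.38 ± 4.55 CPM was at least 66.6-fold higher. *Mmp12* shares 157 of its 7237 exon bases with *Mmp1b* on the opposite strand, which had no count in any library.

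*Mmp14* (ENSMUSG00000000957), on chromosome 14 from 54431612 to 54445364, encodes MT1-MMP, a membrane-bound protease that activates the MMP2 proenzyme in a complex with TIMP2. It had 11.7, 20.8 and 26.7 CPM as the lowest, median and highest levels in ARG1+ libraries and 4.71, 18.3 and 25.9 CPM in ARG1- libraries. The populations overlapped, and they had means of 19.6 ± 6.15 and 16.9 ± 8.001 CPM and a log2 fold change of 0.30 (SE 0.37). The order of the populations differed by sex. In females, ARG1- microglia had 23.2 ± 2.86 and ARG1+ microglia 17.1 ± 8.35 CPM, and in males they had 10.7 ± 5.85 and 22.0 ± 2.61 CPM (SD, n = 3 each). The fitted log2 fold changes of ARG1+ over ARG1- microglia were -0.44 (SE 0.42) in females and 1.04 (SE 0.43) in males. Their difference of -1.48 (SE 0.60) passed only without adjustment (interaction by edgeR, unadjusted p = 0.0310, adjusted p = 0.499).

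*Mmp2* (ENSMUSG00000031740), which encodes gelatinase A, lies on chromosome 8 from 92827291 to 92853420. Its levels were 36.8, 45.1 and 63.0 CPM in ARG1+ libraries and 11.4, 41.7 and 45.1 CPM in ARG1- libraries (lowest, median and highest). The populations overlapped, and the low end in ARG1- microglia was a single library, male replicate 14. The means were 46.9 ± 10.3 and 37.2 ± 12.9 CPM, a log2 fold change of 0.35 (SE 0.27). Among the libraries numbered 13 to 16 the difference in log2 CPM was 1.08, and among the others it was 0.11. The numbered libraries include ARG1- male replicate 14. In them, males had 52.3 CPM in ARG1+ and 11.4 CPM in ARG1- microglia, whereas females had 38.9 and 39.9 CPM.

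*Timp2* (ENSMUSG00000017466), on chromosome 11 from 118301069 to 118355740, encodes the inhibitor that also takes part in MMP2 activation. Its lowest, median and highest levels were 907, 1081 and 1172 CPM in ARG1+ libraries and 611, 927 and 992 CPM in ARG1- libraries. Only ARG1+ female replicate 15, at 907 CPM, fell within the range of ARG1- microglia. The means were 1077 ± 94.4 and 873 ± 143 CPM, a log2 fold change of 0.30 (SE 0.12). In correlations across the libraries of 1 population, chosen after the values were seen, the log2 levels of *Mmp2* and *Timp2* had Pearson's r = 0.95 and Spearman's rho = 0.77 in ARG1- microglia (n = 6), and r was 0.81 without the 2 libraries farthest from the median of *Mmp2*. *Mmp14* and *Timp2* had r = 0.84 and rho = 0.89 in ARG1+ microglia (n = 6), and r = 0.75 without the 2 farthest. In the other population of each pair the values were lower. *Mmp2* and *Timp2* had r = 0.44 and rho = 0.54 in ARG1+ microglia, and r = 0.76 without the 2 farthest. *Mmp14* and *Timp2* had r = 0.75 and rho = 0.26 in ARG1- microglia, and r = -0.031 without the 2 farthest. Each value without the 2 farthest rests on 4 libraries. Of 9 pairs computed over these genes and over *Spp1*, *Mmp12* and *Adam8*, none passed the adjustment (smallest adjusted p = 0.125 for Pearson's r and 0.300 for Spearman's rho, two-sided exact permutation test). For *Mmp2* and *Timp2* in ARG1- microglia, the unadjusted exact permutation p was 0.0278 for r and 0.103 for rho. For *Mmp14* and *Timp2* in ARG1+ microglia it was 0.0194 for r and 0.0333 for rho.

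*Adam8* (ENSMUSG00000025473), on chromosome 7 from 139978932 to 139992562, encodes an ADAM protease known from leukocytes. As with *Mmp12*, all 6 ARG1- libraries had 0 counts. The ARG1+ libraries had 46, 86 and 197 counts in female replicates 7, 8 and 15 and 161, 150 and 67 in male replicates 11, 12 and 16, or 1.46, 3.04 and 5.61 CPM as the lowest, median and highest levels. The mean of 3.13 ± 1.46 CPM was at least 38.8-fold above the limit of 3 counts per ARG1- library. It shares 46 of its 4638 exon bases with *Gm16201* on the opposite strand, which had counts in both populations (1.03 ± 1.005 and 0.637 ± 1.15 CPM). *Adam8* and *Mmp12* did not vary together detectably across ARG1+ libraries (Pearson's r = -0.12, exact permutation p = 0.836, adjusted p = 0.894, and Spearman's rho = -0.20, p = 0.714, adjusted p = 0.803, n = 6, with r = 0.083 without the 2 libraries farthest from the median).

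The other ADAM genes were abundant in both populations. *Adam10* (ENSMUSG00000054693, chromosome 9 from 70678997 to 70780229), the main sheddase of Notch receptors, had 558, 734 and 822 CPM in ARG1+ libraries and 471, 665 and 678 CPM in ARG1- libraries (lowest, median and highest). The ranges overlapped, and the log2 fold change was 0.18 (SE 0.12). *Adam15* (ENSMUSG00000028041, chromosome 3 from 89338542 to 89349996), whose disintegrin domain carries an RGD motif in humans, had 430, 489 and 588 CPM in ARG1+ and 343, 437 and 542 CPM in ARG1- libraries, again with overlap (log2 fold change 0.19, SE 0.11). Of its 6145 exon bases, 1263 are shared with the antisense gene *4731419I09Rik*, and since the kit does not mark the strand, reads from the 2 genes cannot be told apart there. *Adam17* (ENSMUSG00000052593, chromosome 12 from 21323509 to 21373632), the converting enzyme of tumour necrosis factor, had 417, 557 and 628 CPM in ARG1+ and 351, 413 and 477 CPM in ARG1- libraries. ARG1+ male replicate 11 and ARG1+ female replicate 15 lay within the ARG1- range, and the means were 536 ± 86.8 and 412 ± 40.5 CPM (log2 fold change 0.38, SE 0.12). It shares 311 of its 7154 exon bases with *Iah1* on the opposite strand, which had 17.2 ± 3.58 and 17.9 ± 3.08 CPM.

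Across the 10 genes, the ranges were separate, with ARG1+ microglia above, in 3 (*Spp1*, *Mmp12* and *Adam8*), as in 3.48% of all genes tested. As the genes were selected on this contrast, nothing is read from this count. The same holds for the median log2 fold change, which was 0.36 for the 10 genes and 0.06 for all genes tested. It includes *Mmp12* and *Adam8*, which passed the filter on low counts through the ARG1+ libraries alone.

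Per kilobase of exon, *Timp2* had the highest level of the set in both populations, at 276 ± 24.2 CPM per kilobase in ARG1+ and 224 ± 36.8 in ARG1- microglia. *Adam10* came next, at 145 ± 24.8 and 128 ± 16.5. *Spp1* changed its place most. It lay below both *Adam15* and *Adam17* in ARG1- microglia (22.0 ± 8.75). In ARG1+ microglia (130 ± 44.8) its SD overlapped those of *Adam10*, *Adam15* and *Adam17*, so it could not be ordered against them. *Adam15* (80.9 ± 8.81) and *Adam17* (74.9 ± 12.1) could not be ordered beyond their SD in ARG1+ microglia. *Mmp2* (13.9 ± 3.05) was above *Mmp14* (3.28 ± 1.03), and both were far below *Timp2*. *Cd44* (0.929 ± 0.523), *Mmp12* (0.743 ± 0.628) and *Adam8* (0.676 ± 0.314) were lowest in ARG1+ microglia and could not be ordered beyond their spread. With the longest coding transcript as the length, *Mmp12* had 1.49 and *Cd44* 1.12 CPM per kilobase, which turned their order, and *Mmp14* had 7.53. On that length, the ARG1+ levels of *Adam15* (127) and *Adam17* (120) were closer to those of *Spp1* (151) and *Adam10* (155).

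**Figure D2:**
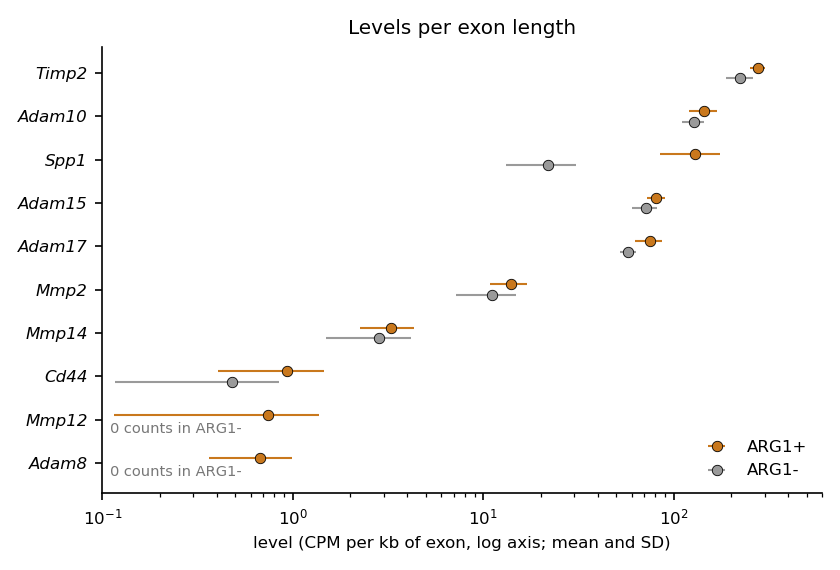
Mean level of each gene per kilobase of exon (log axis), with the SD over 6 libraries as bars, in ARG1+ (orange) and ARG1- (grey) microglia. *Spp1* stands at 130 in ARG1+ and 22.0 in ARG1- microglia, and *Mmp12* and *Adam8* have no point for ARG1- microglia because their counts were 0.

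Whether the genes differed between the sexes was not used to choose them and was tested, with p-values adjusted over all genes. P-values measure the spread between these libraries, which were fitted as independent although the populations may share litters. *Mmp12* and *Adam8* had no count in ARG1- microglia, so only the other 8 genes could differ by sex there or show an interaction. In ARG1- microglia, 0 of these 8 genes showed a sex difference that edgeR called after adjustment, against 0.0946% of all genes tested, and DESeq2's Wald test called 0 as well. At an unadjusted p under 0.05 there were 2, against a background of 10%. These were *Mmp14*, higher in females by 1.12 on the log2 scale (SE 0.43, unadjusted p = 0.0237, adjusted p = 0.458 by edgeR), and *Adam15*, higher in females by 0.29 (SE 0.13, unadjusted p = 0.0495, adjusted p = 0.498). Without ARG1- male replicate 14, which had the lowest level of both genes, 0 of the 8 had an unadjusted p under 0.05.

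In ARG1+ microglia, edgeR called 0 of the 10 genes for sex after adjustment (0.0355% of all genes tested), DESeq2 called 0 as well, and 0 had an unadjusted p under 0.05 (3.12%). The widest difference was that of *Cd44*, higher in females by 1.20 (SE 0.71, unadjusted p = 0.120 and adjusted p = 1 by edgeR), with 8.77 ± 3.48 CPM in females and 3.81 ± 0.903 in males. The interaction of ARG1 status and sex gave 0 of the 8 genes at an adjusted p under 0.05 by edgeR (0% of all genes tested) and by DESeq2. At an unadjusted p under 0.05 it gave 2 genes, against a background of 9.32%, and they were again *Mmp14* and *Adam15*. This count was 0 without ARG1+ female replicate 7, ARG1+ female replicate 15 or ARG1+ male replicate 12, and 3 without ARG1- female replicate 13. For *Adam15*, the log2 fold change of ARG1+ over ARG1- microglia was -0.03 (SE 0.13) in females and 0.41 (SE 0.13) in males, a difference of -0.44 (SE 0.19, unadjusted p = 0.0393 and adjusted p = 0.517 by edgeR). Nothing about the set is read from these counts of 2.

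**Figure D3:**
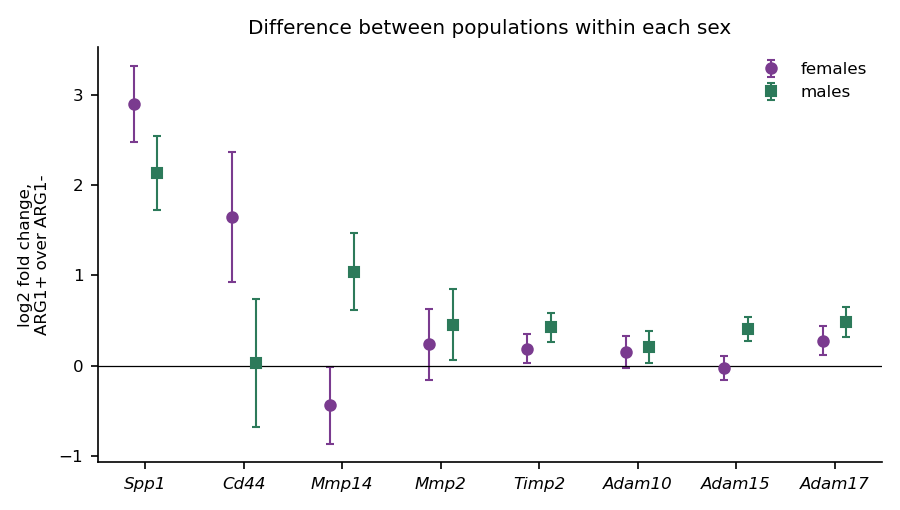
Fitted log2 fold change of ARG1+ over ARG1- microglia in females (circles) and males (squares), with the SE as bars, for the 8 genes with counts in both populations. *Spp1* is at 2.90 in females and 2.14 in males, while *Mmp14* is at -0.44 in females and 1.04 in males.

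Other genes of osteopontin signalling and matrix cleavage were listed by role, with earlier results of these data known, and tested in the same fit. The counts of genes called are therefore given as a description. Of 141 genes in 12 lists, 79 passed the filter on low counts. At an adjusted p under 0.05 by edgeR, 12 rose and 2 fell in ARG1+ microglia, and 65 did not pass the test, with a median log2 fold change of 0.30. Of all genes tested, 6.44% were higher and 9.42% lower at this adjusted limit. The share of all genes at an unadjusted p under 0.05 was not computed for this contrast. Nothing is therefore read from the unadjusted counts given for single lists below. Among the 12, *Fn1* and *Col1a2* passed the filter on low counts through the ARG1+ libraries alone, and nothing is read from their calls. The 4 other bone matrix phosphoproteins of the osteopontin family were at a mean of at most 0.00567 CPM and were not tested.

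Of 9 integrin subunits that form osteopontin receptors, 7 were tested and 0 passed by edgeR, with 2 at an unadjusted p under 0.05. The highest CPM, without regard to gene length, was that of *Itgb5*, at 3129 ± 373 and 3118 ± 487 CPM in the ARG1+ and ARG1- populations (log2 fold change 0.01, SE 0.11, adjusted p = 0.975), followed by *Itgb1* with 806 ± 88.1 and 717 ± 126 CPM (adjusted p = 0.347). Of 13 genes for hyaluronan turnover and CD44 partners, 10 were tested and 0 passed, with 1 at an unadjusted p under 0.05. Among them *Msn*, which encodes moesin, a link between CD44 and actin, had 923 ± 114 and 862 ± 123 CPM (adjusted p = 0.625), and *Rdx*, which encodes radixin, had 158 ± 19.0 and 182 ± 24.7 CPM (adjusted p = 0.249).

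Of the 20 other MMP genes, 7 were tested and only *Mmp19* passed. It rose from 5.55 ± 2.05 to 11.96 ± 3.29 CPM (log2 fold change 1.08, SE 0.28, adjusted p = 0.0219 by edgeR). The ranges nearly touched, with 8.479 CPM as the lowest ARG1+ and 8.471 CPM as the highest ARG1- level. The call was lost, at adjusted p-values of up to 0.0537, without ARG1- female replicate 2, ARG1+ female replicate 7 or ARG1+ male replicate 12. *Mmp24* (6.67 ± 3.19 and 8.36 ± 2.95 CPM) and *Mmp28* (5.76 ± 3.13 and 4.42 ± 2.66 CPM), in ARG1+ and ARG1- microglia, did not pass. Of 4 other MMP inhibitors, 3 were tested and 0 passed, with 1 at an unadjusted p under 0.05, and *Timp3* (0.318 and 1.23 CPM) and *Reck* (3.36 CPM in both) were sparse.

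Of 9 other ADAM genes, 5 were tested and *Adam9*, which encodes a widely expressed sheddase, rose from 122 ± 20.1 to 179 ± 29.7 CPM (log2 fold change 0.55, SE 0.14, adjusted p = 0.0204 by edgeR). *Adam33* had 10.4 ± 5.26 and 2.03 ± 1.997 CPM in ARG1+ and ARG1- microglia and did not overlap between them, but did not pass (log2 fold change 2.33, SE 0.92, adjusted p = 0.112), and *Adam22* had 1.97 ± 1.59 and 1.43 ± 1.70 CPM. Of 19 ADAMTS genes, secreted relatives of the ADAM proteases, 7 were tested, and 3 had an unadjusted p under 0.05 by edgeR. Only *Adamts10* passed after adjustment, and it rose from 9.97 ± 5.79 to 25.4 ± 5.504 CPM (log2 fold change 1.36, SE 0.34, adjusted p = 0.0186). *Adamts16* and *Adamts1* did not pass (adjusted p = 0.830 and 0.283).

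Of 10 partners that steer the maturation of ADAM10 and ADAM17 (the TspanC8 tetraspanins, the iRhoms and their regulators), 8 were tested and 0 passed by edgeR, with 1 at an unadjusted p under 0.05. *Tspan14* had 459 ± 41.9 and 492 ± 28.6 CPM (adjusted p = 0.439) and *Frmd8* 145 ± 23.8 and 135 ± 16.9 CPM (adjusted p = 0.693). Of 4 proprotein convertases, which cut the propeptide of MMP14 and of the ADAM proteases, 2 were tested and neither passed. *Furin* had 123 ± 32.6 and 80.2 ± 30.0 CPM and differed by 0.63 on the log2 scale (SE 0.24, adjusted p = 0.0912 by edgeR). It passed in only 1 of 12 edgeR fits with a library removed (adjusted p = 0.0122 without ARG1- female replicate 1). In the other such fits its adjusted p reached 0.179. Among 8 other settings it passed in 2, at 0.0198 by DESeq2 and 0.0329 by edgeR with at least 10 counts required in every library. *Pcsk7* had 49.1 ± 7.35 and 49.8 ± 18.3 CPM (adjusted p = 0.990). In plasminogen activation, which can activate MMPs, 5 of 7 genes were tested, and 4 had an unadjusted p under 0.05 by edgeR. Only *Plaur*, the urokinase receptor gene, passed after adjustment. It rose from 6.61 ± 4.87 to 18.8 ± 5.73 CPM (log2 fold change 1.55, SE 0.37, adjusted p = 0.0139). *Serpine2* (1360 ± 124 and 1239 ± 108 CPM) and *Plgrkt* (69.4 ± 12.01 and 48.0 ± 21.6 CPM) did not pass.

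Genes whose proteins are shed by ADAM10 or ADAM17 formed the list with the most genes tested. Of 20 listed, 18 were tested, 6 rose and 1 fell. *Axl*, a receptor for apoptotic cells, rose from 69.8 ± 7.70 to 152 ± 20.8 CPM (log2 fold change 1.12, SE 0.11, adjusted p = 2.8e-04 by edgeR). *Lrp1*, an endocytic receptor that also clears MMPs, rose from 474 ± 128 to 966 ± 175 CPM (log2 fold change 1.02, adjusted p = 0.00395). *Aplp2* (log2 fold change 0.79, adjusted p = 0.00543) and *Tgfa* (log2 fold change 0.71, adjusted p = 0.00628) rose as well. *Trem2*, a lipid-sensing receptor of microglia, fell from 1634 ± 119 to 1244 ± 161 CPM, by 0.40 on the log2 scale (SE 0.09, adjusted p = 0.0109). *Csf1r* (adjusted p = 0.861) and *Tnfrsf1b* (711 ± 129 and 588 ± 121 CPM, adjusted p = 0.253) did not pass.

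Of 22 matrix proteins, 7 were tested and 3 were called. *Sparc*, a secreted matrix glycoprotein, fell from 6740 ± 1029 to 4373 ± 303 CPM, by 0.62 on the log2 scale (SE 0.10, adjusted p = 0.00176 by edgeR). The other calls were of *Fn1* and *Col1a2*, near the limit of detection. *Fn1*, which encodes fibronectin, had 0.691 ± 0.745 CPM in ARG1+ libraries and 0 counts in ARG1- libraries, at least 8.55-fold higher against 3 counts per library, and *Col1a2* had 0.0317 to 0.997 CPM in ARG1+ and 0 to 0.0265 CPM in ARG1- libraries. *Fn1* was called in only 4 of 12 fits with a library removed and not in the fit with an added term for libraries numbered 13 to 16, and *Col1a2* lost the call without ARG1+ male replicate 16. *Lamb2* (64.7 ± 20.5 and 61.2 ± 21.4 CPM) and *Lamc1* (12.4 ± 4.91 and 8.80 ± 5.94 CPM) did not pass.

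**Figure D4:**
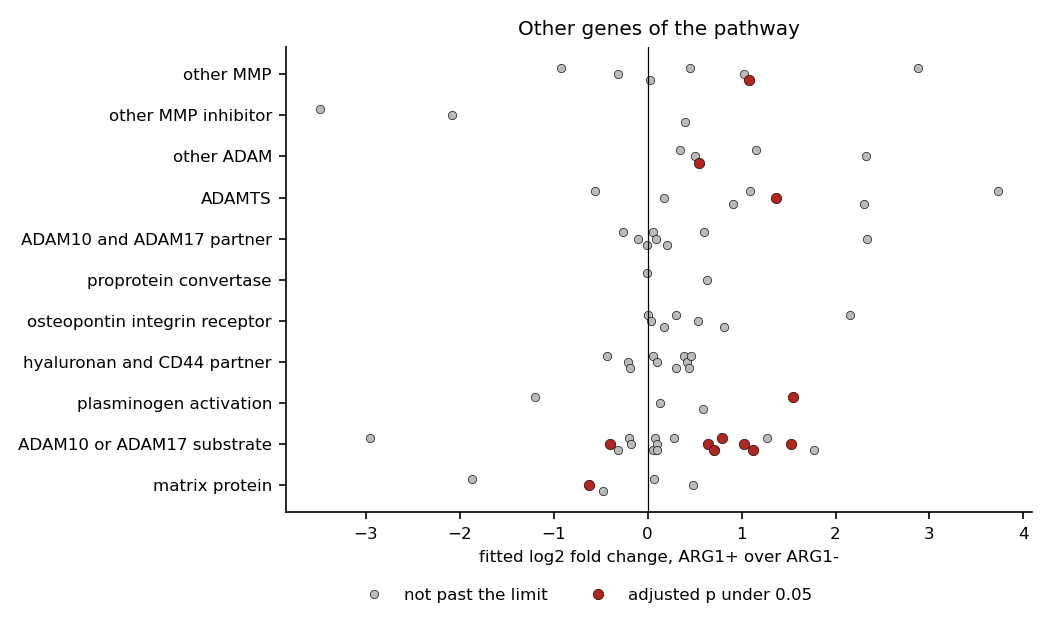
Fitted log2 fold change of ARG1+ over ARG1- microglia for 76 of the 79 other genes tested, by list, with genes at an adjusted p under 0.05 in red. The 3 genes with at most 3 counts in every library of 1 population are not drawn. Most red points lie right of 0, and those left of 0 are *Trem2* and *Sparc*.

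The genes whose levels followed those of *Spp1* most closely over the 12 libraries were found by the root mean square difference of centred log2 CPM among 8953 genes of at least 10 CPM on average. The closest were *Lpl* (difference 0.56), which encodes lipoprotein lipase, and *Igf1* (0.58). *Lpl* had means of 292 and 91.2 CPM and *Igf1* of 54.1 and 11.5 CPM in ARG1+ and ARG1- microglia. For *Cd44* the closest were *Tedc1* (0.52), *Arid5b* (0.52) and *Gm4524* (0.62), and for *Mmp14* they were *Slc35e3* (0.30), *B3galnt2* (0.31) and *C2cd2l* (0.32). Since both populations enter this measure, a gene that differs between them as *Spp1* does is close to it by that alone.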

How the data were processed

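Microglia of P13 YARG mice were sorted by YFP and profiled as 12 libraries, 3 per sex and population. Per the submitters' processing notes, tools were bcl2fastq 2.20.0, STAR 2.6.1d, featureCounts 1.5.1 and DESeq2 1.28.1, and the build was GRCm38. cDNA was made with SMART-Seq, and the strand setting of the counting is not given in the sources used here. The authors deposited raw counts per gene, and 0 columns were left unused. GENCODE M21 matched 55227 of 55487 identifiers, and the other 260 held 0.0333% of counts.

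The 10 genes, the pathway lists and the tests were chosen with earlier results of these data known. In R 4.3.3, edgeR 4.0.16 (limma 3.58.1) was used with filterByExpr, TMM and glmQLFTest. The populations were compared with sex as a term, and sex within a population and the interaction in a fit of 4 group means, with p-values adjusted by Benjamini-Hochberg at a limit of 0.05. SEs were derived from each fold change and F statistic. DESeq2 1.42.0 and other settings were alternatives. The tests were also run on counts simulated as independent libraries, which does not cover libraries that share litters. No conclusion is drawn from that run. Log2 CPM used a prior count of 2, and 3 counts per library served as the detection limit.

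Named genes are the 10 genes, in each pathway list the genes past the limit (at most 4 per direction by p) and the 2 of highest level that did not pass, the most abundant gene of each marker list cited, and the 3 genes closest to *Spp1*, *Cd44* and *Mmp14*. Other marker genes and genes that share exons were named after their values were seen. Under this rule, 1 gene is not reported here. Correlations used scipy. Protein and imaging experiments were not analysed here.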

Additional observations from a re-analysis of the deposited data

Results flagged for a closer look

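The 10 genes, the pathway genes named and the library totals were searched in each population for a library far from the other 5. There were 11 such cases in 87 groups of 6 libraries by Dixon's ratio of gap to range. Chance would give about 4.35 if levels were normally distributed and the groups independent. All groups come from the same 12 libraries and the distribution was not tested, so nothing is read from the excess. In ARG1- male replicate 14, *Mmp2* was at 11.4 CPM, against 38.7 to 45.1 CPM in the other ARG1- libraries, and *Adam10* was at 471 CPM, against 606 to 678 CPM. This library also had the highest *Pcsk7* of its population (85.6 CPM, against 36.0 to 49.1 CPM). In ARG1- male replicate 6, *Mmp24* was low (2.74 CPM, against 8.16 to 10.9) and *Plaur* high (16.2 CPM, against 3.68 to 7.04). In ARG1- female replicate 1, *Furin* was high (138 CPM, against 54.2 to 77.6), as was *Tnfrsf1b* (816 CPM, against 453 to 586). Among ARG1+ libraries, *Adam33* was high in female replicate 15 (20.97 CPM, against 6.37 to 9.16) and *Adamts16* in male replicate 16 (44.1 CPM, against 22.8 to 28.8). In ARG1+ male replicate 11, *Trem2* (1556 CPM, against 1100 to 1242) and *Sparc* (4947 CPM, against 4086 to 4377) were the levels nearest to those of ARG1- microglia.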

How the results depend on the processing

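Depth was not limiting for the abundant genes, but *Mmp12* and *Adam8* could not be tested when at least 10 counts were required in every library, which left 8 of the 10 genes. Over all genes, 2682 passed, of which 40.6% were higher in ARG1+ microglia, and DESeq2 called 1896 higher and 1868 lower (50.4% higher). Leaving out each library gave 1753 to 2669 genes, lowest without ARG1+ male replicate 12. The pathway counts of 12 higher and 2 lower became 17 and 3 by DESeq2 and stayed within 10 to 13 and at 2 without single libraries. DESeq2 called 325, 37 and 214 of all genes for sex in ARG1-, for sex in ARG1+ and for the interaction, and 0 of the genes of the set in each. *Furin* gained a call by DESeq2 and with at least 10 counts in every library, and *Fn1* lost its call with the added term for libraries numbered 13 to 16.

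Signs reversed only for genes that did not pass. *Pcsk7* (-0.01) turned to 0.028 with DESeq2 size factors and with DESeq2, to 0.0052 with upper-quartile factors, 0.021 without a filter, 0.025 with at least 10 counts, 0.0071 with the added term and 0.0053 with thinned counts, *Timp3* (-2.08) to 3.503 with the added term and *Reck* (0.40) to -4.2e-04 with ARG1 status alone. Without single libraries the ranges were -0.098 to 0.22 for *Pcsk7*, -3.19 to 0.36 for *Timp3*, -0.040 to 0.084 for *Itgb5*, -0.016 to 0.18 for *Csf1r*, -0.053 to 0.28 for *Lamb2* and -0.053 to 0.74 for *Adamts16*. The cause was not tested. No paired analysis was possible because no number in the labels is shared between the groups, and libraries of the populations that may come from the same litters were treated as independent.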
